A study of Danio rerio with 2 samples.

Results

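Globin-rich erythroid cells were the wells in which more than 5% of all transcripts came from globin genes, and 158 of 575 kept cells met this rule, 81 of 300 on plate 20 and 77 of 275 on plate 21. They were thus chosen by their measured globin counts. The cells came from wild-type zebrafish, 5 days post fertilization, whose caudal hematopoietic tissue was dissected and sorted for hematopoietic stem and progenitor cells, with a sort day of 6, into 2 plates of 384 wells. CEL-seq2 reads transcripts at the 3′ end and tags each with a molecular identifier, so a molecule counts once whatever its length. Kept wells carried a double or single sort class and had at least 500 transcripts with spike-ins left out, and the markers behind the 2 classes were not given. All groups shared the wild-type genotype, stage, tissue and sort. The plates used the same 384 well numbers by design, and nothing stated that they held separate animals. Every p-value below rests on how far differences between compared groups varied between the plates, pooled over genes wholly or in part. That spread can be technical.

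The caudal hematopoietic tissue is a vascular niche in the tail of the zebrafish embryo, where blood stem and progenitor cells settle, divide and mature, and it plays the part of the mammalian fetal liver. A maturing red cell makes alpha- and beta-type globin chains, builds heme from glycine and succinyl-CoA through the mitochondrial enzyme Alas2 and a chain of further enzymes, takes up iron, and lays down a spectrin-based membrane skeleton around the anion exchanger Slc4a1. The transcription factors Gata1, Tal1, Lmo2 and Klf1 drive this programme, which in zebrafish produces nucleated red cells with embryonic globins before adult globins take over.

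The globin share was continuous across the threshold. Of the 575 cells, 149 were at or under 0.5% globin, 120 lay between 0.5 and 1%, 57 between 1 and 2%, 65 between 2 and 4% and 26 between 4 and 5%. Above the threshold 23 cells lay between 5 and 6%, 63 between 6 and 10%, 44 between 10 and 15%, 17 between 15 and 20%, and 11 above that. The 3 cells just under the threshold had 4.89, 4.97 and 4.99% and the 3 just over it 5.13, 5.18 and 5.27%, all on plate 21. They were picked as the nearest cells on each side, and no other gene was compared between them. In globin-rich cells the share ran from 5.32 to 26.6% with a median of 8.44% on plate 20 and from 5.13 to 21.9% with a median of 10.8% on plate 21. The other cells had medians of 0.691% and 0.677%. Since this share chose the cells, these values are a description and no test was made of them.

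**Figure D1:**
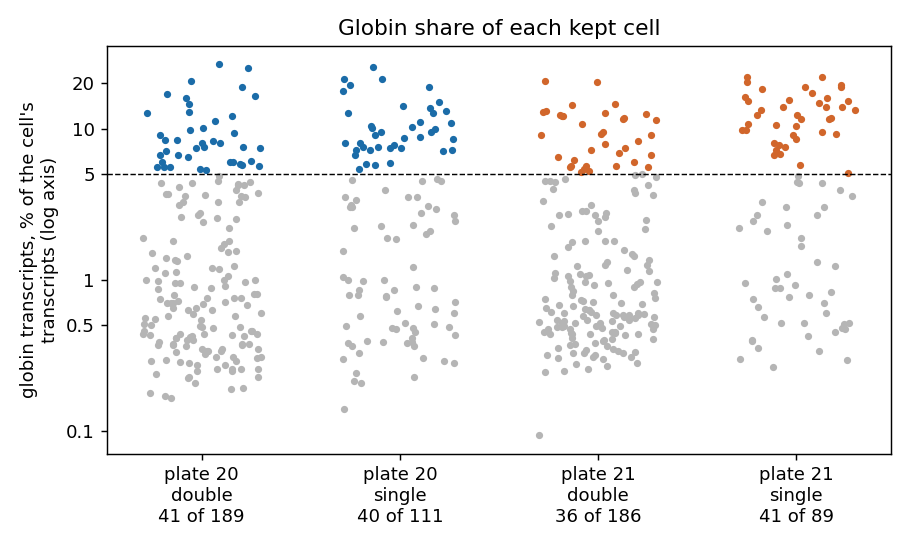
Percent of a cell's transcripts that came from globin genes (log axis) for each of the 575 kept cells, by plate and sort class; the dashed line is the 5% threshold, coloured points are globin-rich cells and grey points all other cells. Cells fill the range on both sides of the threshold, and the counts under each column give the globin-rich cells among all kept cells of that class.

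Globin-rich cells were of ordinary depth. Their median was 8257 transcripts on plate 20 (range 521 to 23312) and 9581 on plate 21 (626 to 51877). The other cells had medians of 7223 (515 to 249815) and 8659 (610 to 44639). On plate 20 the other cells summed to 2124483 non-globin transcripts, and to 1878199 without the well of most transcripts. With each cell thinned to 500 non-globin transcripts, the median number of genes detected was 312.5 and 303 in globin-rich cells and 309 and 302.5 in the rest. Transcripts per spike-in transcript, a measure of the RNA recovered from a well, had medians of 18.4 and 22.2 in globin-rich cells and 18 and 17.8 in the other cells, ranges that overlapped widely. Some wells outside the kept classes were also globin-rich. Of 16 undefined wells with at least 500 transcripts 1 was over 5% globin, and of 172 double or single wells with fewer transcripts 18 were, with a median of 2.67% over those 172.

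Nearly all globin transcripts in these cells came from 4 of the 12 globin genes in the tables, all 4 named as embryonic genes. The embryonic alpha-globin gene hbae3 (ENSDARG00000079305) gave 34641 transcripts on plate 20 and 48965 on plate 21, which was 53.2% and 49.5% of all globin transcripts in globin-rich cells. The alpha-globin gene hbae1.3 (ENSDARG00000089124) followed with 15.6% and 20.03%. The beta-type genes are both named HBE1 in the annotation, after the human embryonic gene, and ENSDARG00000045143 held 17.8% and 16.8% and ENSDARG00000087390 10.7% and 10.95%. The alpha genes hbae1.1 and hbae1.2 held 1.56% and 1.69%, and 0.679% and 0.518%. These copies are close in sequence, and reads could have been divided between them in the authors' counting.

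The other globin genes were scarce. The alpha-type gene hbae4 had 178 and 253 transcripts in globin-rich cells and hbae5 had 84 and 224, while the beta-type gene hbbe3 had 3 and 4. A pair of further rows named HBE1, ENSDARG00000069734 and ENSDARG00000089087, had 0 and 2 and 0 and 0. The adult alpha-globin gene hbaa2 had 0 transcripts in globin-rich cells of both plates and 4 in a single other cell of plate 20. The marker hbae5 was uneven between cells. It was detected in 34 of 81 globin-rich cells on plate 20 and 41 of 77 on plate 21, and the 5 cells with most of it held 51.2% and 64.7% of its transcripts, against 13.9% and 18.5% for hbae3. In the cell with most hbae5 it made up 7.82% of that cell's globin transcripts, on plate 21.

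The balance of chains was similar on both plates. Summed alpha-type transcripts exceeded beta-type ones 2.51-fold on plate 20 and 2.60-fold on plate 21, and the median ratio per cell was 2.61 (range 1.11 to 6.84) and 2.56 (1.51 to 10.7). The other cells had 2.14 and 2.51 when summed. The make-up of the beta-type chains was less even. ENSDARG00000087390 held a median of 9.29% and 10.3% of a globin-rich cell's globin transcripts, against 5.47% and 5.27% in the other cells. ENSDARG00000045143 went the other way, with 17.7% and 16.8% against 25% and 23.4%. Within the globin-rich cells the part held by ENSDARG00000087390 increased with the globin share, with Spearman's rho of 0.25 over 81 cells and 0.46 over 77 cells, and that of ENSDARG00000045143 decreased, with −0.16 and −0.27. For hbae3 rho was 0.08 and −0.04. These correlations are over cells that share a plate and library, and the values compared share a denominator, so they describe the cells and carry no test.

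**Figure D2:**
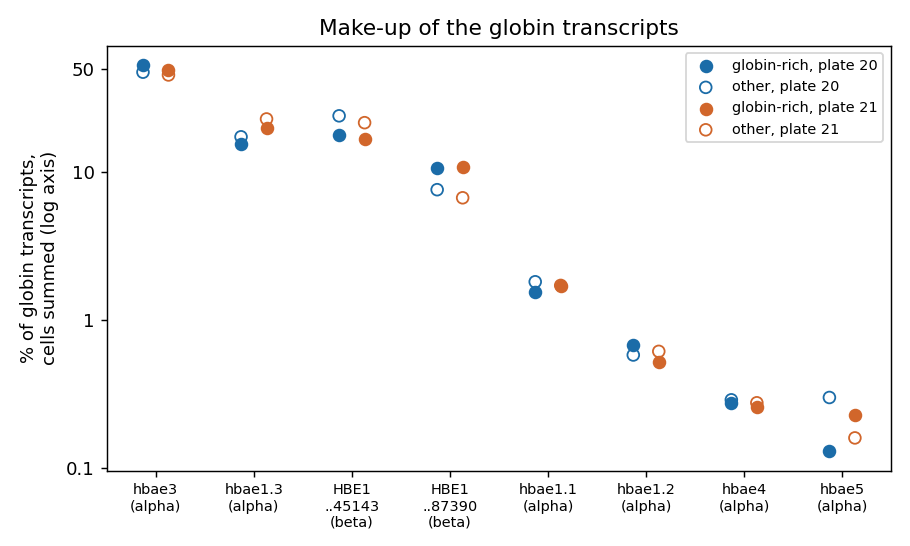
Percent of all globin transcripts that came from each of the 8 globin genes with at least 100 transcripts in globin-rich cells (log axis, cells summed); filled points are globin-rich and open points other cells, blue is plate 20 and orange plate 21. The gene hbae3 held 53.2% and 49.5% in globin-rich cells, and HBE1 ENSDARG00000087390 held more there than in other cells on both plates.

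Low levels of globin were also found in cells of another type. The other cells included 29 on plate 20 and 26 on plate 21 with over 2% of their non-globin transcripts from neutrophil genes, and these neutrophil-rich cells had a median globin share of 0.340% and 0.472%, with highest values of 0.806% and 0.928%. They were drawn from the other cells, so by the rule none of them could be over 5%. Of 17 neutrophil rows matched by name, the neutrophil peroxidase gene mpx was not among them and is not analysed here.

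The label of erythroid cells was set beside alas2 and cahz, the 2 of its 5 markers that the rule did not use. These markers were chosen with earlier results of these data known, so they are not an independent check. The heme synthesis gene alas2 (ENSDARG00000038643) was detected in 100% of globin-rich cells on plate 20 and 98.7% on plate 21, with a median of 24.5 and 22.6 transcripts per 10000 non-globin transcripts. The other cells had medians of 1.12 and 1.17 and the neutrophil-rich cells 0 and 0. After thinning to 500 transcripts, alas2 was detected in 55.0% and 72.7% of globin-rich cells, 14.2% and 12.6% of other cells and 6.90% and 0% of neutrophil-rich cells, whose median depths were 5284 and 7439 transcripts before thinning. The red cell carbonic anhydrase gene cahz (ENSDARG00000011166) was found in 97.5% and 100% of globin-rich cells, at medians of 54.7 and 50.9 per 10000 against 3.79 and 2.94 in the other cells. After thinning it remained detected in 90% and 84.4% of globin-rich cells and in 26.5% and 23.7% of the others. Both markers went with the label.

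Globin-rich cells were then compared with all other kept cells over the remaining genes, to describe what else set them apart. Transcripts were summed per plate and state, which gave 617375 and 853363 non-globin transcripts for globin-rich cells and 2124483 and 2055101 for the other cells, and globin genes were left out of the sums. Of 8586 genes tested, edgeR's quasi-likelihood test with the plate as a block called 3275, 38.1% of those tested, at a Benjamini-Hochberg adjusted p under 0.05. Of these 1428 (16.6%) were higher and 1847 (21.5%) lower in globin-rich cells, and plates 20 and 21 gave the same sign for 3265 of the 3275. DESeq2's Wald test called 889 of 7420 genes (12%), 325 higher (4.38%) and 564 lower (7.6%), and edgeR called every one of them in the same direction. The fit had 1 residual degree of freedom and estimated 1 common spread for all genes, so its p-values are very small and the size of a fold and its value on each plate say more. Higher genes with more than a 4-fold difference numbered 42 and lower ones 798, and the median log2 fold over all genes was −0.019. Of the 2-fold changes simulated for this comparison 43% were called, so a gene not called can still differ. The other cells included 148 of 417 with 1 to 5% globin, and without these the list medians below were 1.86 for heme synthesis, 1.87 for membrane and transport, 1.13 for iron and 0.75 for erythroid transcription genes.

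Genes of heme synthesis were higher together. Of 16 tested, 11 were higher and 1 lower, with a median log2 fold of 1.12. The gene alas2, for the erythroid form of the first enzyme of the pathway, stood at 2738 and 2483 CPM (transcripts per 1000000 non-globin transcripts, TMM-normalized) in globin-rich cells of plates 20 and 21, and at 359 and 326 CPM in the other cells. Its log2 fold was 2.93 ± 0.08 (SE, 2 plates), with 2.93 on plate 20 and 2.92 on plate 21. In this comparison the SE comes from the spread pooled over genes, not from a gene's own difference between the plates. The non-erythroid form ALAS1 was the 1 lower gene, with a log2 fold of −0.90. Later enzymes of the pathway were higher, with uros at 1.44 ± 0.11, UROD at 1.66 ± 0.09, CPOX at 1.42 and FECH, which inserts the iron, at 1.02. The mitochondrial transporter gene ABCB10 was at 1.71. The groups of plates did not overlap for any of these genes. How many of all tested genes had no overlap was not counted, so this does not set them apart.

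Iron genes were also higher, with 9 of 14 tested called higher and 0 lower by edgeR and a median log2 fold of 0.81. DESeq2 called 5 of the 14. The ferritin heavy chain gene fth1a was among the most abundant, at 15004 and 13543 CPM against 6942 and 6939, a log2 fold of 1.04 ± 0.06. SNX3, a sorting factor that recycles the transferrin receptor in mammals, was at 475 and 476 CPM against 164 and 159 (1.56 ± 0.11). The ferritin-recycling gene ncoa4 rose by 1.33 ± 0.13 and the iron transporter gene slc11a2 by 0.86 ± 0.09. SLC25A37, the mitochondrial iron importer known as mitoferrin, was at 1.52. The iron regulatory gene ACO1 did not pass, with a log2 fold of −0.33, while its relative IREB2 was called higher at 0.72.

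Red cell membrane and transport genes had 15 of 19 tested called higher and 2 lower, with a median log2 fold of 1.13. The anion exchanger gene SLC4A1 was at 7947 and 8070 CPM in globin-rich cells and 2956 and 2875 in the rest, a log2 fold of 1.46 ± 0.06. The carbonic anhydrase gene cahz, whose enzyme works with the exchanger in carrying carbon dioxide, had the largest rise of the list, from 1082 and 822 CPM in the other cells to 5867 and 5254 (2.56 ± 0.07, edgeR adjusted p = 7.53e-284, DESeq2 adjusted p = 8.29e-119). The membrane skeleton genes epb41b (1.54 ± 0.09), ANK1 (1.68) and SPTB (1.41), for protein 4.1, ankyrin and beta-spectrin, rose as well. The water channel gene AQP1 was at 1.84 ± 0.11 and the outer mitochondrial membrane gene tspo at 1.498 ± 0.08. The 2 lower members were another carbonic anhydrase gene, ca2, at −4.25, and the ammonium transporter gene RHBG at −3.82, whose relative of red cells RHAG was higher at 0.61.

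**Figure D3:**
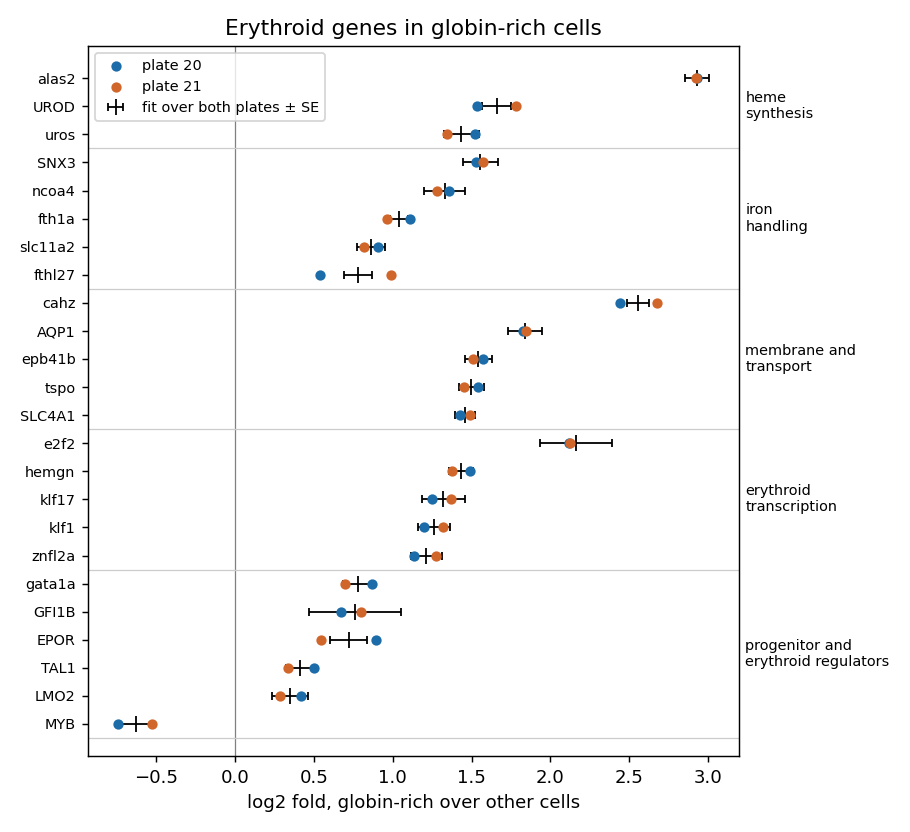
Log2 fold of globin-rich over other cells for named genes of heme synthesis, iron handling, membrane and transport, erythroid transcription and other regulators; black bars are the fit over both plates ± SE, blue points plate 20 and orange points plate 21. All genes except MYB lie right of 0 on both plates, from 0.28 for LMO2 on plate 21 to 2.93 for alas2 on plate 20.

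Among 31 tested genes of erythroid transcription, 19 were higher and 5 lower by edgeR, with a median log2 fold of 0.59. The general shares were 16.6% higher and 21.5% lower, so the 5 lower did not exceed the share over all genes. DESeq2 called 10 of the 31. The master regulator gene gata1a was at 648 and 572 CPM against 355 and 353 (0.78 ± 0.10), and klf1, which activates globin and membrane genes in mammals, at 565 and 591 against 246 and 237 (1.26 ± 0.10). Larger folds were found for klf17 (1.32 ± 0.14), hemgn, which encodes the nuclear protein hemogen (1.43 ± 0.07), and e2f2, a cell cycle factor needed for terminal red cell divisions in mice (2.16 ± 0.23, from 23.4 and 22.5 to 105 and 101 CPM). TAL1 at 0.41 ± 0.09, LMO2 at 0.35 ± 0.12 and GFI1B at 0.76 ± 0.29 were called by edgeR but not by DESeq2, with adjusted p of 0.0931, 0.406 and 0.545. The 5 lower genes were the 2 copies of HMGB3 (−1.94 and −3.61), bcl11ab (−1.86), zbtb7a (−1.57) and maff (−0.76).

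Genes of erythropoietin and survival signalling did not move together, with 2 of 14 higher and 4 lower and a median of −0.13. The shares over all genes tested were 16.6% higher and 21.5% lower. The erythropoietin receptor gene EPOR was higher, at 342 and 270 CPM against 184 on each plate (0.72 ± 0.12). The stem cell factor receptor gene KIT, which early progenitors carry, fell from 92.0 and 105 CPM to 27.8 and 15.9 (−2.22 ± 0.25). Its log2 fold was −1.69 on plate 20 and −2.65 on plate 21, further apart than that pooled SE. The signalling genes JAK2 (0.18), stat5b (0.23) and BCL2L1 (0.01) were not called, and stat5a was called lower by edgeR only (−0.90 ± 0.22, DESeq2 adjusted p = 0.193).

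Cell cycle genes were higher as a list. Of 36 tested, 30 were higher and 1 lower by edgeR, with a median log2 fold of 0.87, and DESeq2 called 15. The list made up 1.5003% and 1.4970% of non-globin transcripts in globin-rich cells of plates 20 and 21 against 0.862% and 0.844% in the rest. A large part of these shares came from 1 member, the tubulin gene tuba8l4, at 5160 and 5852 CPM against 2132 and 2126. The nucleotide synthesis genes RRM1 (1.15 ± 0.10) and TYMS (1.29 ± 0.13) of the S phase rose as did the mitosis genes CDK1 (1.23 ± 0.11) and plk1 (1.09 ± 0.11). The proliferation gene mki67 had a median of 5.31 and 5.44 per 10000 in globin-rich cells, 1.08 and 0.761 in other cells and 0 in neutrophil-rich cells of both plates. The 1 lower gene was ranbp1, a nuclear transport factor, at −0.62.

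Some antioxidant genes were higher. Of 17 tested, 8 were higher and 3 lower, with a median of 0.13. Over all genes tested 16.6% were higher and 21.5% lower, so the 3 lower did not exceed the general share. The peroxiredoxin gene PRDX1 was abundant, at 5689 and 5429 CPM against 2553 and 2800 (1.05 ± 0.06), and PRDX3 (0.93 ± 0.08), SOD1 (0.90 ± 0.10) and gpx1a (0.80 ± 0.08) rose too. The pentose phosphate gene PGD (−1.04 ± 0.19) fell, as did gpx4a (−1.46). Genes of reticulocyte maturation and autophagy had 9 of 17 higher and 1 lower by edgeR, at a median of 0.57. DESeq2 called 3 of the 17, and the median was 0.16 with thinned cells. The mitophagy receptor gene BNIP3L was at 60.6 and 53.7 CPM against 29.6 and 23.5 (1.11 ± 0.26, edgeR adjusted p = 0.000105, DESeq2 adjusted p = 0.165), and the autophagy adaptor gene SQSTM1 fell by 1.46 ± 0.20.

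Ribosomal protein genes had 65 of 72 tested called higher and 1 lower, but their median log2 fold was only 0.25, and none of 70 was called with cells thinned to 500 transcripts, where the median was 0.02. They made up 24.9% and 26.9% of non-globin transcripts in globin-rich and 20.4% and 24.2% in other cells. Nuclear-encoded oxidative phosphorylation genes had 9 of 84 higher and 5 lower, below the share called over all genes, with a median of 0.05. Of 8 glycolysis genes 5 were lower and 0 higher, at a median of −1.22, with GAPDH falling from 505 and 244 CPM to 49.1 and 24.4 (−3.34 ± 0.17). Over all genes tested 21.5% were lower. The per-cell median share of the glycolysis list was 0.0402% and 0.0341% in globin-rich and 0.0641% and 0.0650% in other cells. With cells summed the gap was wider, at 0.0476% and 0.0390% against 0.143% and 0.111%.

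Heat shock and immediate early genes, which respond to stress and to dissociation of tissue, were mostly lower, with 17 of 22 tested called lower and 3 higher and a median of −1.13. The general shares were 21.5% lower and 16.6% higher. The immediate early genes JUNB (−2.13 ± 0.23) and FOS (−1.95 ± 0.22) and the mitochondrial chaperone genes HSPD1 (−1.37 ± 0.14) and HSPE1 (−1.29 ± 0.14) fell. The list made up 0.959% and 0.908% of non-globin transcripts in globin-rich cells and 1.31% and 1.36% in the rest. Whether handling differed between the cells was not tested.

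The genes with the smallest p-values also included some gene models and rows without a name. The gene model si:ch211-103n10.5 was at 1094 and 935 CPM in globin-rich and at 98.2 and 114 in other cells, a log2 fold of 3.25 ± 0.10, and the tubulin gene tuba8l4, a member of the cell cycle list, had 1.37 ± 0.06. Genes with no paired name were ENSDARG00000090689 (3.47 ± 0.17, 231 and 318 CPM against 27.2 and 22), ENSDARG00000089963 (2.67 ± 0.10), ENSDARG00000044212 (1.79 ± 0.09) and ENSDARG00000042310 (1.63 ± 0.08). All 6 were higher on both plates.

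Progenitor genes were mostly lower, with 12 of 17 tested called lower and 3 higher and a median of −2.20. The general shares were 21.5% lower and 16.6% higher, so the 3 higher were near what all genes gave. Across alternatives the median ran from −3.15, with other cells of 1 to 5% globin left out, to −0.90 with thinned cells. The list includes leukocyte and myeloid genes, and neutrophil-rich cells were among the other cells. The blood progenitor transcription factor gene MYB was at 234 and 280 CPM in globin-rich and 393 and 404 in other cells (−0.63 ± 0.11), and its median per 10000 was 1.36 and 1.71 against 2.55 and 2.40. Larger falls were found for the chemokine receptor gene CXCR4 (ENSDARG00000041959, −2.20 ± 0.15), the pan-leukocyte gene ptprc (−3.87 ± 0.36) and the myeloid factor gene SPI1, which had 3 and 2 transcripts in globin-rich cells (−4.28 ± 0.42). The 3 higher members were MLLT3, a chromatin reader gene that keeps human stem cells in culture, at 55.7 and 55.0 CPM against 6.68 and 6.36 (3.07 ± 0.35), lmo4a (0.93) and hlfa (0.60). The progenitor marker gata2b had 0 transcripts in globin-rich cells of both plates and 8 and 5 in the other cells, and cd34 had 1 and 3 against 47 and 65.

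Thrombocyte genes were split in the same cells. The platelet glycoprotein genes GP1BB, at 124 and 186 CPM against 69.6 and 68.0 (1.18 ± 0.16), and gp9, at 60.6 and 45.2 against 14.8 and 12.7 (1.93 ± 0.30), were higher, with NFE2 (0.90 ± 0.15), a factor of both red cells and thrombocytes. The genes rgs18, f5 and ITGB3 were called lower by edgeR only. In globin-rich cells rgs18 had 0 and 1 transcripts against 30 and 36, and f5 had 0 and 0 against 20 and 31. Summed over its genes the list was higher in globin-rich cells, at 0.0390% and 0.0427% of non-globin transcripts against 0.0261% and 0.0271%. The defining thrombocyte genes itga2b and mpl were close to absent everywhere, with 0 transcripts in globin-rich cells and no more than 1 per plate in all other cells, so they do not tell the states apart. The list had 3 higher and 3 lower of 7 tested, with a median of −0.29 that turned to 0.25 without 15 wells rich in muscle or epidermis genes and to 0.38 with a 10% threshold. Among all genes tested 16.6% were higher and 21.5% lower.

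Markers of other cell types were mostly low in globin-rich cells. All 14 tested neutrophil genes and all 11 macrophage genes were lower, with medians of −3.19 and −3.78, and neutrophil genes made up 0.0543% and 0.0507% of non-globin transcripts, with 0.508% in the highest globin-rich cell, against 0.661% and 0.665% in the rest. The lysozyme gene lyz was at 183 and 217 CPM against 2502 and 2912, a log2 fold of −3.75 ± 0.09. Its per-cell median did not follow that fold. It was 1.49 and 1.86 per 10000 in globin-rich cells, 1.31 and 1.86 in the other cells, and 207 and 17.8 in the neutrophil-rich cells, so the summed difference was carried by a minority of the other cells. The endothelial genes cdh5 and tie1 had 0 transcripts in globin-rich cells, against 1 and 13 and 5 and 22 in the other cells of plates 20 and 21. The scavenger receptor gene stab2 of the same list went in opposite directions, with log2 folds of 1.32 on plate 20 and −2.61 on plate 21 from 6 and 2 transcripts in globin-rich cells, and was not called. Of 4 tested lymphoid genes 3 were lower and 1 higher, the transcription factor gene IKZF1, at 111 and 115 CPM against 77.3 and 73.3 (0.59 ± 0.17, edgeR adjusted p = 0.00266, DESeq2 adjusted p = 0.353). For these lists the general shares were 16.6% higher and 21.5% lower. The endothelial gene kdrl is not analysed here.

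Muscle, epidermis and stroma genes gave some of the largest folds. These rested on a few wells for the muscle list, and only in part for epidermis and stroma. All 15 tested muscle genes, 14 of 15 epidermis genes and all 7 stroma genes were lower, with medians of −3.75, −3.21 and −4.06. The parvalbumin gene pvalb2 was at 655 and 216 CPM against 7155 and 2259, a log2 fold of −3.42 ± 0.08. Without 15 wells in which muscle or epidermis genes held over 5% of transcripts, none of them globin-rich, its log2 fold was 0.073, and that of krt91 went from −2.88 to 0.0010. The medians without those wells were 0.048 for muscle, −1.83 for epidermis and −1.92 for stroma genes. Heme synthesis (1.08), membrane (1.24), cell cycle (0.81) and neutrophil genes (−3.25) stayed near their values, where the full set had 1.12, 1.13, 0.87 and −3.19.

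**Figure D4:**
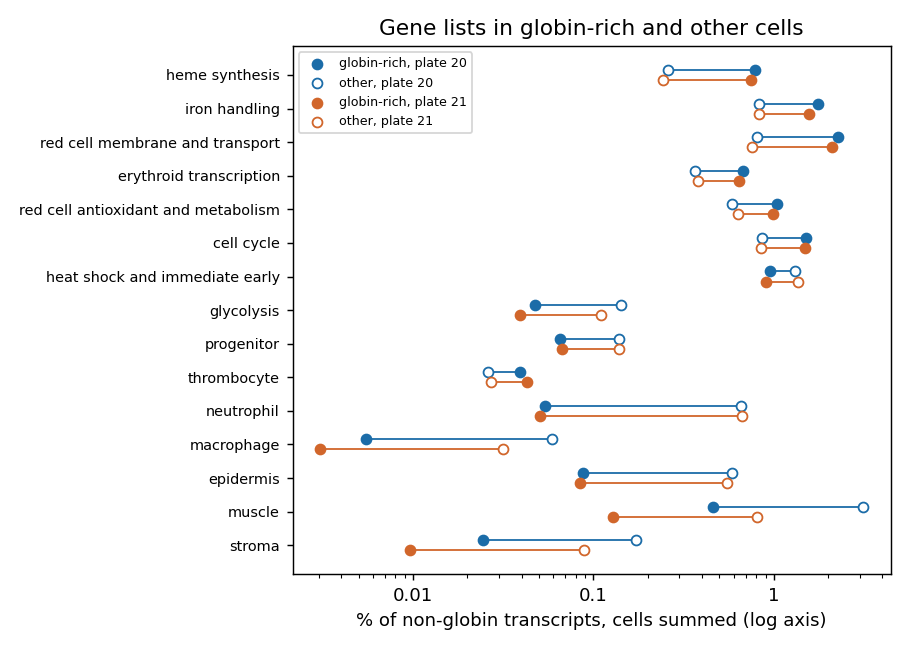
Percent of non-globin transcripts that each gene list held (log axis, cells summed) in globin-rich (filled) and other cells (open), joined for plate 20 (blue) and plate 21 (orange). Heme synthesis held 0.789% and 0.745% in globin-rich and 0.258% and 0.242% in other cells; for muscle and epidermis the open points rest in part on the 15 wells named in the text.

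The cells were next divided at the median globin share of their own plate, to describe how other genes went with more or less globin. The upper and lower groups held 40 and 41 cells on plate 20 and 38 and 39 on plate 21, with median globin shares of 12.7% and 7.12%, and of 13.9% and 7.48%. Cells with more globin were shallower, at medians of 6003 against 9921 and 8747 against 12282 transcripts, and their part in the differences below was not tested beyond the thinned data. Of 3665 genes tested, edgeR called 32 (0.873%), 24 higher (0.655%) and 8 lower (0.218%) in the cells with more globin, and every one of the 32 kept its sign between plates. DESeq2 called 5, all higher and all among the 24, and 392 genes had an unadjusted p under 0.05 in edgeR. With cells thinned to 500 transcripts 251 genes could be tested and 0 were called by edgeR. Thinning left sums of 19000 to 20000 transcripts, where the main fit had 245884 to 526690. The absence of calls there cannot show whether the differences depend on depth.

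Genes that rose with the globin share included cahz and alas2. The gene cahz was at 8835 and 8134 CPM in cells with more globin and 4417 and 3899 in those with less, a log2 fold of 1.03 ± 0.13 (edgeR adjusted p = 7.47e-09). The gene si:ch211-103n10.5 had 1.22 ± 0.14, alas2 0.78 ± 0.13 (3814 and 3526 against 2251 and 2039 CPM) and the unnamed ENSDARG00000089963 and ENSDARG00000090689 0.77 ± 0.15 and 1.004 ± 0.19. The chaperone gene HSP90AA1 also rose, from 936 and 595 to 1798 and 1180 CPM (0.96 ± 0.14). Others, named after their values were seen, were hemgn (0.69), AQP1 (0.63), tspo (0.52) and the heat shock gene hsp70.3 (0.88). DESeq2 also called cahz, alas2, HSP90AA1, si:ch211-103n10.5 and hemgn. Medians of the erythroid lists were 0.13 for heme synthesis (1 of 15 higher), 0.27 for iron (0 of 10) and 0.45 for membrane genes (3 of 15 higher), against 0.01 over all genes. With thinned cells these medians were 0.49, 0.13 and 0.58.

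Markers of some other cell types also had medians above 0, with none of their tested genes called by edgeR or DESeq2. The median log2 fold was 0.79 over 5 neutrophil genes, 0.65 over 4 thrombocyte genes, 0.41 over 9 muscle genes and 0.64 for the 1 stroma gene tested, col1a1a, while 5 epidermis genes had −0.20. Neutrophil genes made up 0.0712% and 0.0603% of non-globin transcripts in cells with more globin and 0.0431% and 0.0448% in those with less, and Spearman's rho of their level with the globin share was 0.30 and 0.28. The actin-binding gene tmsb4x, named after its values were seen, was called higher by edgeR (0.72 ± 0.19, adjusted p = 0.0376) and not by DESeq2. The part of other cells' RNA in the differences between these groups was not tested.

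The 8 genes that fell with the globin share included ncl and FBL. The nucleolin gene ncl was at 191 and 178 CPM in cells with more globin and 320 and 363 in those with less (−0.90 ± 0.21, edgeR adjusted p = 0.00977). The fibrillarin gene FBL, for the enzyme that methylates ribosomal RNA, was at 75.7 and 94.1 against 152 and 199 CPM (−1.05 ± 0.27). The RNA-binding protein genes SYNCRIP (−0.76 ± 0.20) and cirbpb (−0.53 ± 0.14), the mitochondrial enzyme gene MDH2 (−1.20 ± 0.31) and sb:cb81 (−1.15 ± 0.29) were lower as well. The last 2 of the 8 were IDH2 (−0.68) and EIF5A2 (−0.54), named after their values were seen. DESeq2 called none of these 8. Ribosomal protein genes themselves did not pass in either direction (0 of 71, median 0.05), nor did cell cycle genes (0 of 33, median 0.04). Only 36% of the 2-fold changes simulated for this comparison were called, so genes that did not pass can still differ.

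Across single cells, cahz and alas2 also went with the globin share. Spearman's rho over 81 cells of plate 20 and 77 cells of plate 21 was 0.62 and 0.70 for cahz, 0.50 and 0.63 for alas2, 0.59 and 0.55 for SLC4A1, 0.53 and 0.51 for hemgn and 0.67 and 0.58 for PRDX1. It was −0.43 and −0.50 for ncl and −0.21 and −0.30 for MYB, and near 0 for gata1a (−0.11 and −0.18) and klf1 (−0.05 and 0.10). For the depth of a cell it was −0.38 over 80 cells and −0.28 over 77. The cells share a plate, and these values describe them without a test.

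**Figure D5:**
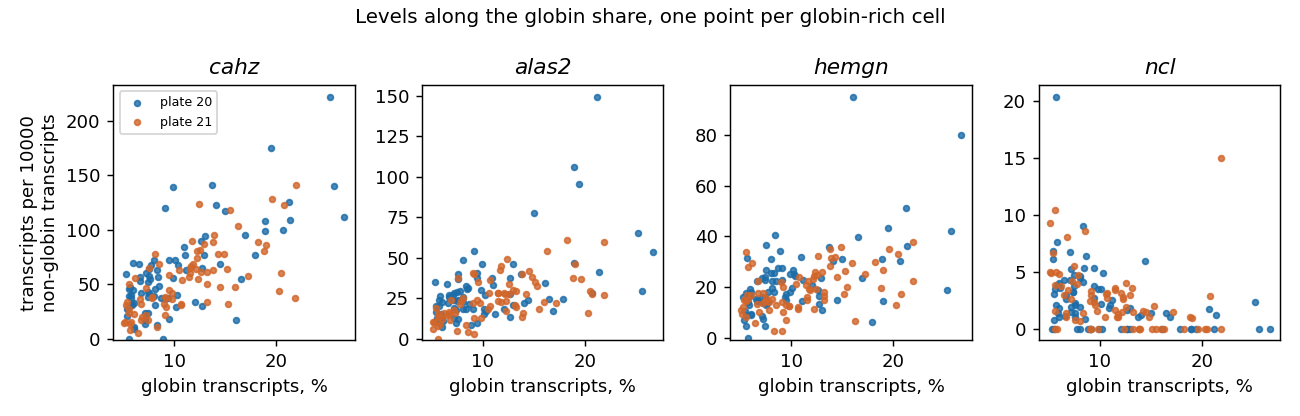
Transcripts per 10000 non-globin transcripts of cahz, alas2, hemgn and ncl against the globin share (% of transcripts) in each of the 158 globin-rich cells, blue for plate 20 and orange for plate 21. The first 3 increase and ncl decreases with the globin share, with Spearman's rho of 0.62 and 0.70 for cahz and −0.43 and −0.50 for ncl.

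The sort class was not used by the rule, and the globin-rich cells were compared between classes. They were 41 double and 40 single cells on plate 20 and 36 and 41 on plate 21, taken from more double than single cells. Cells over 10% globin were 6.88% of double and 15.3% of single cells on plate 20 (95% Clopper-Pearson intervals 3.71 to 11.5 and 9.18 to 23.4) and 8.06% and 30.3% on plate 21 (4.58 to 12.95 and 21.03 to 40.99), and the intervals cover counting error only. Within the globin-rich cells the median globin share of double cells was 8.07% on plate 20 and 9.07% on plate 21. For single cells it was 9.28% and 12.3%. The class of plate 21 wells rests on reading its layout along rows. Read down columns, plate 21 had 48 double and 27 single globin-rich cells, 26.8% and 28.7% of each class, and cells over 10% globin were 14.0% and 18.1% (intervals 9.25 to 19.9 and 10.9 to 27.4), so the difference between classes on plate 21 depends on that reading.

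Few genes were called between the classes. A gene that was not called can still differ, since only 44% of the 2-fold changes simulated for this comparison were called. Of 3791 genes tested, edgeR called 8 (0.211%), all lower in double cells and none higher (0%), DESeq2 called 0, and 218 had an unadjusted p under 0.05 in edgeR. Of the 8, SLC4A1, alas2, cahz and fth1a belong to the erythroid programme. SLC4A1 was at 7679 and 7459 CPM in double and 9052 and 9689 in single cells (−0.31 ± 0.06), alas2 at 2484 and 2205 against 3315 and 3095 (−0.45 ± 0.08), fth1a at −0.27 ± 0.05 and cahz at −0.30 ± 0.06. Single cells had the higher globin share, and alas2 and cahz were also called higher in cells with more globin. For SLC4A1 and fth1a, which were not called there, Spearman's rho with the globin share was 0.59 and 0.55, and 0.50 and 0.51. The part of the globin share in these differences between classes was not tested. The heat shock gene hsp70l had the largest fold, −2.64 ± 0.35 (edgeR adjusted p = 0.000887), but it was detected in 5 of 41 double and 14 of 40 single cells on plate 20 and in 7 of 36 and 4 of 41 on plate 21, and 1 cell held 51.8% of its transcripts in single cells of plate 20. The unnamed ENSDARG00000082180 had −0.62 ± 0.11 and ENSDARG00000080337 −0.25 ± 0.05. The last of the 8, si:dkey-240n22.2, had −1.53 and was named after its values were seen.

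No gene passed in the other direction. The smallest p-values for genes higher in double cells belonged to e2f2, at 156 and 134 CPM against 52.9 and 70.0 (log2 fold 1.204 ± 0.31, edgeR adjusted p = 0.283), RCBTB2 (1.61 ± 0.44, 0.438), AP3D1 (1.55 ± 0.43, 0.438), ENSDARG00000018130 (1.92 ± 0.56, 0.583), KIF14 (1.32 ± 0.42, 0.861) and hadhaa (1.69 ± 0.56, 0.861). The gene e2f2 was detected in 23 of 41 double and 5 of 40 single cells on plate 20 and in 19 of 36 and 15 of 41 on plate 21. Swapping the classes within each of 2 plates gives a smallest p of 0.5, so no single value was tested by permutation.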

How the data were processed

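Single-cell CEL-seq2 tables of 2 plates were analysed. Reads were aligned with BWA to the build Zv9, per the submitters' processing notes, and the counting tool is not given in the sources used here. Values as deposited were expected counts of each gene in each well, without scaling. Among 1273614 values above 0, 100% lay within 0.01 of a whole count of molecular identifiers corrected for identifiers drawn more than once out of 4096; the largest globin count in a well was 1662 identifiers. Of 19955 gene rows, 78.9% had a name, and other genes are given by ID. The layout of plate 21 had no well numbers and was read along rows.

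Wells labelled double or single with at least 500 transcripts were kept, and the 21 undefined wells entered no comparison. Each well was sorted, and no doublet caller was run. Expected counts were summed per plate and state, with globin genes and spike-ins left out, rounded, and tested in edgeR 4.0.16 under R 4.3.3, two-sided, by the quasi-likelihood F test after TMM and filterByExpr, with the plate as a block, since both states came from each plate. SE is the log2 fold divided by the square root of F, so it rests on the spread borrowed across genes. DESeq2 1.42.0 was an alternative. Per-plate log2 folds were taken on TMM-normalized CPM with 1 added. Scripts were tested on simulated data. The cells and gene lists were chosen with earlier results of these data known, and support nothing beyond their own values. Named genes were, per direction, the 12 of smallest p, up to 5 per list, the markers and 9 regulators, and for comparisons within globin-rich cells, per direction, the 6 of smallest p; further list members in the text were picked after their values were seen, and some genes that meet these rules are not reported here. Alternatives are given at the end.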

Additional observations from a re-analysis of the deposited data

Results flagged for a closer look

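A globin-rich well was found outside the compared classes. One undefined well of plate 21 had 24.1% of its 3815 transcripts from globin genes, with 18 transcripts of cahz and 15 of alas2, where a count of 0 would allow up to 0.0786%. It entered no comparison.

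For 4 of the genes given above for the sort classes, the double over single log2 ratio changed sign between states. It had 1 sign in globin-rich cells of both plates and the opposite sign in the other cells of both plates. The ratios of plate 21 rest on reading its layout along rows, and the fold of ENSDARG00000080337 in globin-rich cells reversed with the reading down columns. The difference was not tested. These genes were named for their small p-values in globin-rich cells, which favours 1 sign on both plates there. How many of all tested genes changed sign in this way was not counted, so the pattern does not set these 4 apart. For RCBTB2 the ratio was 1.3004 and 1.86 in globin-rich cells of plates 20 and 21 and −0.33 and −0.06 in the other cells. For hadhaa it was 1.39 and 1.91 against −0.29 and −0.28. ENSDARG00000082180 had −0.48 and −0.65 against 0.47 and 0.32, and ENSDARG00000080337 −0.063 and −0.36 against 0.05 and 0.15. RCBTB2 and hadhaa rest on 4 to 7 transcripts in the single globin-rich cells of each plate. Some of the opposing ratios were small. They include −0.06 for RCBTB2 in the other cells of plate 21. For ENSDARG00000080337 they include −0.063 in globin-rich and 0.05 in other cells of plate 20.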

How the results depend on the processing

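For globin-rich against other cells, 1428 genes were higher and 1847 lower. DESeq2's Wald test gave 325 and 564, cells thinned to 500 non-globin transcripts gave 82 and 158 of 876 tested, with 226 of these 240 calls shared, and a globin threshold of 10% gave 586 and 980. Higher counts stayed between 1006 and 1689 and lower ones between 1494 and 2061 under the remaining alternatives. Without the replicate block that pairs the states of a plate the counts were 1006 and 1494, all 2500 shared. The median fold over all genes was −0.57 with no filter on low counts and −0.11 at the 10% threshold. Without the 15 wells over 5% muscle or epidermis transcripts, log2 folds turned to 0.036 for ENSDARG00000037840, 0.073 for pvalb2, 0.25 for pvalb1, 0.0010 for krt91, 0.27 for TTN (ENSDARG00000000563) and 0.23 for MYL1 (ENSDARG00000017441). TTN also turned to 0.18 without the well of most transcripts and to 0.22 with other cells of 1 to 5% globin left out. Thinning turned UBB to −0.29, RPL39 to −0.022, RPL34 to −0.090 and RPS29 to −0.16. The cause of these reversals was not tested.

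For double against single cells, 0 genes were higher and 8 lower. The lower count was 0 without the replicate block, by DESeq2, with thinned cells and with globin genes kept, 1 with no filter on low counts, and 3 with the layout of plate 21 read down columns, where 2 were higher, 1 of these 5 calls was shared and ENSDARG00000080337 turned to 0.15. The higher count was 1 at a cell minimum of 250 transcripts and 1 at the 10% threshold. At that threshold 11 of 1566 genes tested were called, 4 of them shared with the 8. With only cells over their plate's median globin share 7 of 1754 were called, 4 of them shared. Both settings held fewer cells.

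For higher against lower globin share, 24 genes were higher and 8 lower. The counts were 3 and 0 without the replicate block, 0 and 0 with no filter and with thinned cells, and 5 and 0 by DESeq2. The lower count was 16 at a cell minimum of 250 transcripts and 17 when only the extremes of the globin share were compared, leaving out the middle cells. Leaving out a plate gave the fold on the other plate with no test, and it reversed no called gene among those named; stab2, not called, was 1.32 on plate 20 and −2.61 on plate 21. Globin-rich cells were 21.7% of double and 36.04% of single cells on plate 20 and 19.4% and 46.1% on plate 21. They were 36.5, 55.9, 33.3 and 62.9% in that order at a threshold of 2% and 6.88, 15.3, 8.06 and 30.3% at 10%. With plate 21 read down columns its shares were 26.8% and 28.7%.

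With 2 plates and 1 residual degree of freedom, p-values depend on the spread borrowed across genes. At these depths a gene of a few transcripts per state was not resolved, and counts near 0 do not show absence.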
